A study of Homo sapiens with 9 samples.

Results

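The genes described here are 7 genes of the eosinophil programme. EPX, CLC and PRG3 encode granule and crystal proteins, HRH4, PTGDR2 and SIGLEC8 encode surface receptors, and ALOX15 encodes a lipid-oxidising enzyme. They were chosen by name, as known eosinophil genes, out of 14778 named genes on the array, with earlier results of these data known. Each of the 7 had 1 named probe set, which is the one used, and all 7 entered every comparison.

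The cells were HL-60 clone 15, a subline of the promyelocytic leukaemia line HL-60 that can be driven towards an eosinophil-like state. All cells carried a lentiviral construct that 4-hydroxytamoxifen (4-OHT), a ligand of the oestrogen receptor, switches on. The 9 arrays fall into 3 groups of 3: cells transduced with RhoH and given 100 nM 4-OHT (here induced RhoH), cells transduced with RhoH and given no 4-OHT (here uninduced RhoH), and cells transduced with GFP, a fluorescent control protein, and given 100 nM 4-OHT (here GFP). The names stand for the labels. The study's design asks what RhoH changes, with uninduced RhoH and GFP cells as controls. The 2 transduced populations are separate, and no GFP array without 4-OHT was used here. Between uninduced RhoH and GFP, the construct, the population and the drug therefore cannot be told apart. Between induced and uninduced RhoH, the drug and the switched-on construct cannot be told apart. Between induced RhoH and GFP, the same holds for the construct and the population. The labels name no agent that drives eosinophil differentiation.

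Eosinophils are granulocytes that store cationic proteins and a peroxidase in large granules and release them at sites of allergy and helminth infection. In the bone marrow their precursors fill these granules at the promyelocyte and myelocyte stage, under transcription factors of the GATA and C/EBP families and cytokines such as interleukin-5. The receptors SIGLEC8 and PTGDR2 are known from the mature cell, so that they and the granule genes mark different ends of the programme.

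EPX and CLC were the members that differed most between groups, and they did so between the RhoH and the GFP populations. EPX signal was 3.97-fold higher in arrays labelled induced RhoH and 6.66-fold higher in those labelled uninduced RhoH than in GFP arrays, and CLC was 2.94-fold and 3.36-fold higher. HRH4 was 2.00-fold higher in induced RhoH than in GFP arrays. No member passed the test between induced and uninduced RhoH, and PTGDR2, SIGLEC8 and ALOX15 passed in no comparison. The arrays measured RNA of whole cultures, in which more cells of a type and more RNA per cell cannot be told apart.

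Promoter sequences were found for 4 of the 7 members (CLC, PRG3, HRH4 and SIGLEC8) in a RefSeq table of GRCh38.p14. They run from 250 bases before to 50 bases after the annotated start, 5′ to 3′ on the gene's strand. The 3 whose genes were called in a comparison are printed here to show the letters of a GATA factor site, since eosinophil granule genes are known GATA targets. Capitals mark GATAA or GATAG on either strand (TTATC or CTATC where the site is on the other strand).
CLC promoter (chr19:39737980-39738279, minus strand): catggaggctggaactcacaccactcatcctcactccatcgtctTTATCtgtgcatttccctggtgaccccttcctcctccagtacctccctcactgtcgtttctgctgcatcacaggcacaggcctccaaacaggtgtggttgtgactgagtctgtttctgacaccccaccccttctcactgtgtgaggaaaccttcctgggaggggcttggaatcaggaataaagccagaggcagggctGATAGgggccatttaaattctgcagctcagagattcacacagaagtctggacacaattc
PRG3 promoter (chr11:57381101-57381400, minus strand): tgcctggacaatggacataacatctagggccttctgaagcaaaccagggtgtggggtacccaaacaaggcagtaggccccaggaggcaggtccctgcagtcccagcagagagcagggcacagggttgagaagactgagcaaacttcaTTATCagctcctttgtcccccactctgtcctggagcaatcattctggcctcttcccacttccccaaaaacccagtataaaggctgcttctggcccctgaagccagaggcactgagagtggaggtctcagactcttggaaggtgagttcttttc
HRH4 promoter (chr18:24460387-24460686, plus strand): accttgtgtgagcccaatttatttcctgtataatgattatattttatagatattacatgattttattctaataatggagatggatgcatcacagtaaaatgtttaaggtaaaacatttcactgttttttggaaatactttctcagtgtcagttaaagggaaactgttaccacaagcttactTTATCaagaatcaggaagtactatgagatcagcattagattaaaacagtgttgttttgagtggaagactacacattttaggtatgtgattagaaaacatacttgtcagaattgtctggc
CLC held GATAA on the other strand at -206 and GATAG at -9, counted from the start, PRG3 held GATAA on the other strand at -103 and HRH4 at -69. SIGLEC8 held neither. Of all 35116 promoters of this length in the table, 35.4% held GATAA or GATAG on either strand, so that 3 of 4 is a description of 4 promoters. GAGGAA, a core of the ETS factor PU.1, was in 2 of the 4 (CLC and SIGLEC8), against 27.9% of all promoters. TATAAA was in PRG3 at -29 on the gene's strand and in HRH4 at -208 on the other strand, against 11.5% of all promoters. TTGCNNCAA (C/EBP), TTCNNNGAA (STAT) and TGANTCA (AP-1) were searched on both strands and matched none of the 4.

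All values are log2 signals of the deposited table, so a difference of 1 is a 2-fold change, and each difference was tested with limma over all 14778 genes. A gene is called where its Benjamini-Hochberg adjusted p is under 0.05. The signals had medians of 5.43 to 5.55 on the 9 arrays. RMA, the method that made them, pulls low signals towards the background, so differences of dim genes are understated. The replicate 1 arrays of the 2 RhoH groups and induced RhoH replicate 3 stood apart, with limma array weights of 0.333 and 0.267 for the replicate 1 arrays and 0.275 for the other, against 1.25 to 2.61 for the rest. The replicate 1 arrays correlated with each other at 0.987 across probe sets, against 0.974 to 0.983 among the induced and 0.980 to 0.995 among the uninduced arrays. Values without both replicate 1 arrays are given for each member, and leaving out induced RhoH replicate 3 changed the call of none of the 7. RHOH, the gene on the construct, measured 5.60, 5.73 and 5.45 in arrays labelled induced RhoH, 5.23, 5.25 and 5.15 in those labelled uninduced RhoH, and 5.90, 5.94 and 5.94 in those labelled GFP. The difference was 0.38 between the RhoH groups (adjusted p = 0.0451, a call lost in 12 of 18 alternatives), -0.33 for induced RhoH against GFP (adjusted p = 0.0717) and -0.72 for uninduced RhoH against GFP (adjusted p = 0.000420). Its highest signals were thus in arrays with the GFP label, and every direction given here is that of the arrays as labelled. The series' design text calls the replicates biological and does not say whether they were separate transductions.

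**Figure D1:**
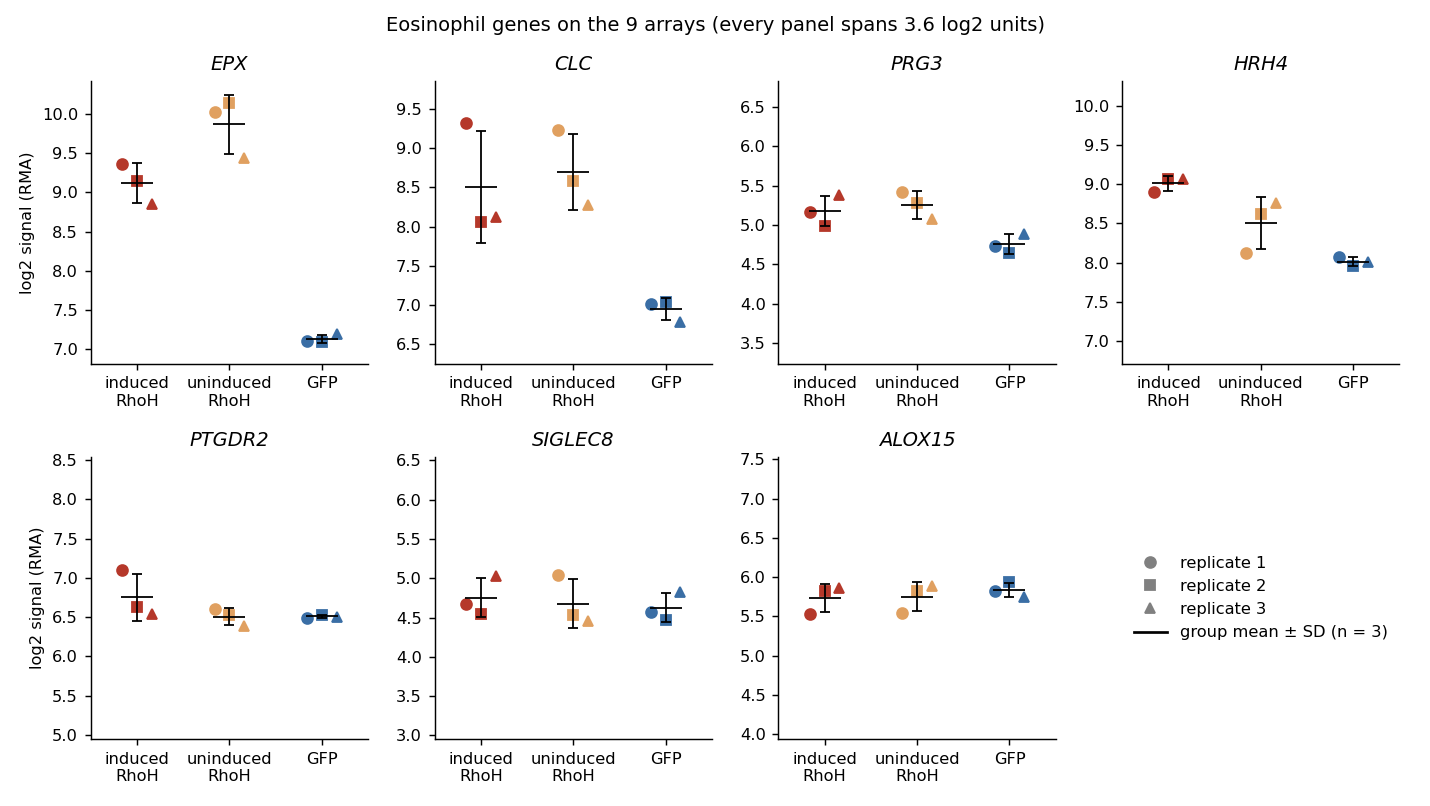
Log2 signal (RMA, vertical axis) of the 7 eosinophil genes on each of the 9 arrays, grouped on the horizontal axis as labelled. Marker shapes give the replicate number, and black bars the group mean ± SD (n = 3). The 3 GFP arrays lie below all 6 RhoH arrays for EPX, CLC, PRG3 and HRH4, and ALOX15 differs by at most 0.40 between any 2 arrays.

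Of the granule and crystal genes, EPX encodes eosinophil peroxidase, the haem enzyme of the specific granule, which makes hypobromous acid from bromide and hydrogen peroxide. Its signal (probe set 16836416) was 9.36, 9.15 and 8.85 on the arrays labelled induced RhoH, 10.02, 10.14 and 9.43 on those labelled uninduced RhoH, and 7.10, 7.09 and 7.19 on those labelled GFP. The 3 groups did not overlap, with uninduced RhoH highest and GFP lowest. Group means were 9.12 ± 0.25, 9.86 ± 0.38 and 7.13 ± 0.05 (SD, n = 3 each). Against GFP the difference was 1.99 for induced RhoH (SE 0.18, limma adjusted p = 0.000266) and 2.74 for uninduced RhoH (adjusted p = 7.12e-06), and it passed under all 19 alternative settings in both comparisons. Without both replicate 1 arrays these were 1.87 and 2.66. Between induced and uninduced RhoH it was -0.75 (95% interval -1.15 to -0.34, adjusted p = 0.0560), just short of the threshold. That call depended on the setting. Without uninduced RhoH replicate 3, the lowest of its group, the difference was -0.96 (adjusted p = 0.0117), and without both replicate 1 arrays it was -0.79 (adjusted p = 0.115).

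CLC encodes the Charcot-Leyden crystal protein galectin-10, which eosinophils and basophils hold in large amounts and which crystallises where eosinophils break down. Its signal (probe set 16872248) was 9.32, 8.06 and 8.12 on the arrays labelled induced RhoH, 9.23, 8.58 and 8.28 on those labelled uninduced RhoH, and 7.01, 7.05 and 6.78 on those labelled GFP. All 6 RhoH arrays lay above all 3 GFP arrays, and the RhoH groups overlapped. The replicate 1 array was the highest in both RhoH groups, 1.23 and 0.80 above the mean of the other 2. Means were 8.50 ± 0.71, 8.70 ± 0.48 and 6.95 ± 0.14 in the same order of groups (SD, n = 3 each). The difference from GFP was 1.55 for induced RhoH (SE 0.33, adjusted p = 0.0266) and 1.75 for uninduced RhoH (adjusted p = 0.00497). Without both replicate 1 arrays these were 1.14 and 1.48, with adjusted p of 0.00261 and 0.000220. The call for induced RhoH was lost when GFP replicate 1, 2 or 3 was left out (adjusted p = 0.0938, 0.0956 and 0.117), with all probe sets tested (0.0667), and in a fit of 6 arrays without uninduced RhoH (0.0525). Between induced and uninduced RhoH the difference was -0.19, with a 95% interval of -0.93 to 0.54 that leaves room for a change in either direction, and it was -0.34 (adjusted p = 0.251) without both replicate 1 arrays.

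PRG3 encodes a homologue of PRG2, the major basic protein that forms the core of the eosinophil granule. Its probe set (16738456) gave a dim signal, which ranked at percentile 18.2 to 29.4 among the genes of an array. It read 5.17, 4.99 and 5.38 on the arrays labelled induced RhoH, 5.42, 5.28 and 5.07 on those labelled uninduced RhoH, and 4.73, 4.64 and 4.89 on those labelled GFP. The GFP arrays were again the lowest 3, with no overlap. Uninduced RhoH was 1.42-fold higher than GFP (log2 difference 0.50, SE 0.13, adjusted p = 0.0240), a call that was lost with all probe sets tested (0.0556), without uninduced RhoH replicate 1 or 2 (0.0781 and 0.0702), without GFP replicate 1 or 2 (0.0833 and 0.105), and without both RhoH replicate 1 arrays (0.0829). For induced RhoH the difference from GFP was 0.42 (adjusted p = 0.111, and 0.43 without both replicate 1 arrays). Between the RhoH groups it was -0.08 (95% interval -0.37 to 0.21, adjusted p = 0.887), and 0.009 without them. PRG2, RNASE2 and RNASE3, which encode the other main granule proteins, were not analysed here, nor were other galectins beside CLC.

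**Figure D2:**
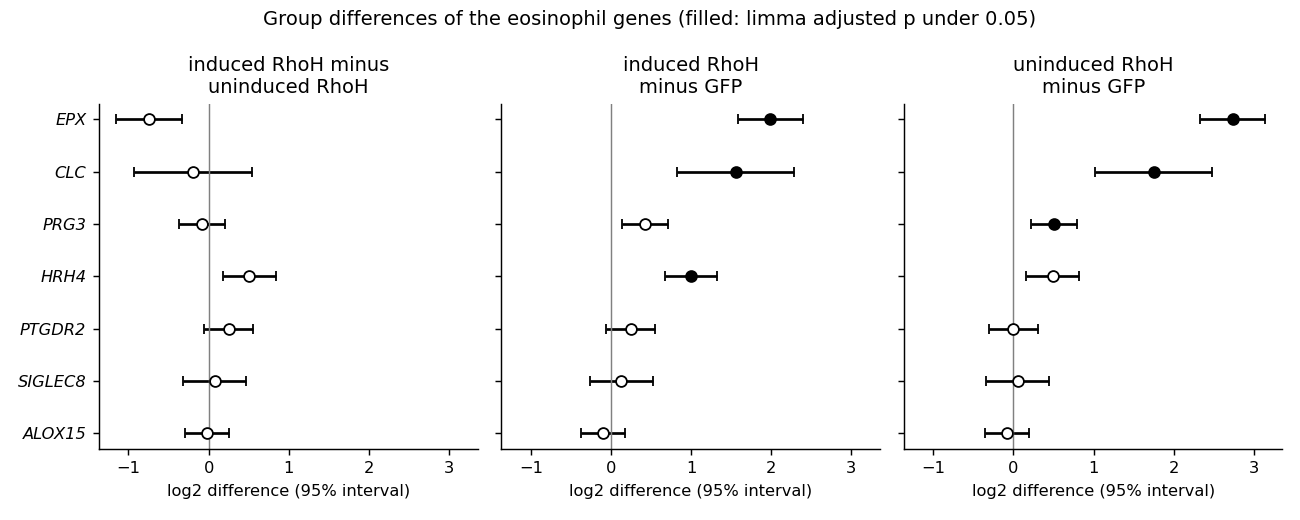
Log2 differences between groups (horizontal axis) for the 7 genes in the 3 comparisons. Points are limma estimates over 9 arrays, bars their 95% intervals, and filled points have an adjusted p under 0.05. The filled points are EPX, CLC and HRH4 for induced RhoH against GFP, and EPX, CLC and PRG3 for uninduced RhoH against GFP.

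Among the receptors, HRH4 encodes the histamine H4 receptor, a G protein-coupled receptor of eosinophils, mast cells and basophils that mediates their migration towards histamine. Its signal (probe set 16851618) was 8.90, 9.06 and 9.07 on the arrays labelled induced RhoH, 8.13, 8.62 and 8.76 on those labelled uninduced RhoH, and 8.08, 7.95 and 8.01 on those labelled GFP. The 3 groups did not overlap, and induced RhoH was highest, where for EPX uninduced RhoH was highest. Means were 9.01 ± 0.10, 8.50 ± 0.33 and 8.01 ± 0.06 (SD, n = 3 each). The difference of induced RhoH from GFP, 1.00 (SE 0.15, adjusted p = 0.00437), passed under all 19 alternatives, and was 1.05 without both replicate 1 arrays. Uninduced RhoH replicate 1 lay 0.57 below the mean of the other 2 arrays of its group and close to the GFP arrays. With it, uninduced RhoH exceeded GFP by 0.49 (adjusted p = 0.0510). Without it the difference was 0.68 (adjusted p = 0.00170), and without both replicate 1 arrays 0.68 (adjusted p = 0.00106). Without uninduced RhoH replicate 3 it was 0.36 (adjusted p = 0.173), and it stayed uncalled in 11 of 19 alternatives. Induced minus uninduced RhoH was 0.51 (95% interval 0.18 to 0.84, adjusted p = 0.105). It was 0.38 (adjusted p = 0.0619) without both replicate 1 arrays, and passed in 1 of 19 alternatives, quantile normalization of the named genes again (0.48, adjusted p = 0.0300).

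PTGDR2 encodes CRTH2, the prostaglandin D2 receptor that draws eosinophils, basophils and type 2 helper T cells to sites of allergy. Its signal (probe set 16738864) was 7.10, 6.63 and 6.53 on the arrays labelled induced RhoH, 6.60, 6.52 and 6.39 on those labelled uninduced RhoH, and 6.49, 6.53 and 6.50 on those labelled GFP. Induced RhoH replicate 1 stood clear of the rest, 0.51 above the mean of the other 2 arrays of its group, which lay just above the highest GFP array. The induced RhoH mean exceeded that of uninduced RhoH by 0.25 (adjusted p = 0.485) and that of GFP by 0.25 (adjusted p = 0.427). Without both replicate 1 arrays these differences were 0.13 and 0.08. Uninduced RhoH minus GFP was -0.004, with a 95% interval of -0.31 to 0.30, and -0.05 without them.

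SIGLEC8 encodes a sialic acid-binding receptor of eosinophils and mast cells whose engagement kills activated eosinophils. Its probe set (16874866) was the dimmest of the 7, at percentile 15.0 to 23.3. It read 4.67, 4.55 and 5.03 on the arrays labelled induced RhoH, 5.04, 4.53 and 4.46 on those labelled uninduced RhoH, and 4.57, 4.47 and 4.83 on those labelled GFP. The groups overlapped throughout, and the 3 differences lay between 0.05 and 0.13 with adjusted p of 0.767 to 0.926. The widest of their 95% intervals in either direction reached -0.34 and 0.52. Uninduced RhoH replicate 1 lay 0.54 above the mean of the other 2 arrays of its group. Without both replicate 1 arrays the difference was 0.30 between the RhoH groups, 0.17 for induced RhoH against GFP and -0.13 for uninduced RhoH against GFP (adjusted p = 0.486, 0.580 and 0.683).

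ALOX15 encodes 15-lipoxygenase, which turns arachidonic acid into 15-HETE and the eoxins and is abundant in airway eosinophils. Its signal (probe set 16840066) was 5.53, 5.82 and 5.86 on the arrays labelled induced RhoH, 5.54, 5.82 and 5.89 on those labelled uninduced RhoH, and 5.82, 5.94 and 5.75 on those labelled GFP. The replicate 1 arrays of both RhoH groups were the lowest 2 of the 9. The differences were -0.02 between the RhoH groups, -0.10 for induced RhoH against GFP and -0.08 for uninduced RhoH against GFP (adjusted p = 0.981, 0.738 and 0.712). Their 95% intervals lay within -0.37 and 0.26, so small changes in signal at this probe set are not excluded. The ALOX15 signal ranked at percentile 31.8 to 41.4 among the genes of an array. Without both replicate 1 arrays the differences were -0.02, 0.003 and 0.02.

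Over the whole set, 0 of the 7 members were called between arrays labelled induced and uninduced RhoH by limma, where 3.78% of all genes tested were called (3.02% higher and 0.751% lower). Without the adjustment, 2 had a p under 0.05, EPX (lower) and HRH4 (higher), as had 2139 of all 14778 genes. EPX and HRH4 were also the members whose arrays did not overlap (14.5% of all genes, 8.9% higher and 5.64% lower). The median difference was -0.02 over the members and 0.00 over all genes. Between induced RhoH and GFP, 3 were called, all higher (4.49% of all genes were called, 1.74% higher and 2.75% lower), and 5 had arrays that did not overlap and were higher (22.5% of all genes did not overlap, 11.1% higher and 11.4% lower). The median was 0.42 over the members and 0.03 over all genes. Between uninduced RhoH and GFP, 3 were called, all higher (15.3% of all genes were called, 6.01% higher and 9.27% lower). The arrays of 4 did not overlap and were higher (37.3% of all genes did not overlap, 19.2% higher and 18.1% lower), and the medians were 0.49 and 0.05. The comparisons with GFP share the 3 GFP arrays and so are not independent of each other. The members were chosen with earlier results of these data known, so the counts beside the all-gene shares are a description. Without both RhoH replicate 1 arrays the counts were 0, 3 and 3, the last with HRH4 in place of PRG3. In order of level, EPX ran uninduced RhoH, induced RhoH, GFP and HRH4 ran induced RhoH, uninduced RhoH, GFP, with no overlap between neighbours, although the RhoH neighbours did not pass the test for either gene. For CLC and PRG3 the 2 RhoH groups overlapped, and for PTGDR2, SIGLEC8 and ALOX15 no neighbours passed the test.

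Factors of the eosinophil lineage, among them factors of the GATA family, were measured on the same arrays. Binding of these factors to the letters marked in the CLC, PRG3 and HRH4 promoters was not tested. GATA1, the factor required for eosinophil commitment, read 6.72 ± 0.09 in induced RhoH, 6.71 ± 0.12 in uninduced RhoH and 6.67 ± 0.06 in GFP arrays (SD, n = 3 each), with differences of 0.01 to 0.05 (adjusted p = 0.842 to 0.978). GATA2, a factor of early progenitors, mast cells and eosinophils, had means of 9.16 ± 0.05, 8.12 ± 0.18 and 8.48 ± 0.05 in the same order. Induced RhoH exceeded uninduced RhoH by 1.04 (adjusted p = 0.000347) and GFP by 0.67 (adjusted p = 0.00444), and the difference of uninduced RhoH from GFP was -0.36 (adjusted p = 0.0344, lost in 6 of 19 alternatives). Of 13 measured lineage factors, 3 rose and 0 fell between induced and uninduced RhoH (3.02% and 0.751% of all genes). These were GATA2, the LIM-only adaptor LMO4 (0.64, adjusted p = 0.00436) and the Ikaros family member IKZF2 (0.79, adjusted p = 0.0433), whose call was lost in 13 of 19 alternatives. Against GFP, 3 were higher in induced RhoH: GATA2, XBP1 (0.50, adjusted p = 0.0136, lost in 3 of 19 alternatives), which eosinophil precursors need to survive granule formation in mice, and GFI1 (0.49, adjusted p = 0.0188, lost in 4 of 19), a repressor of granulocyte precursors. The all-gene shares were 1.74% higher and 2.75% lower in induced RhoH against GFP, and 6.01% and 9.27% in uninduced RhoH against GFP. In uninduced RhoH against GFP, XBP1 (0.54) and GFI1 (0.58) were higher and GATA2 and LMO4 (-0.41) lower. XBP1 and GFI1 thus divided RhoH from GFP arrays as EPX and CLC did, while GATA2, like HRH4, was highest in induced RhoH. CEBPE was not analysed here.

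EPX belongs to the haem peroxidases, whose other measured members are MPO, LPO, PXDN and PXDNL. MPO encodes the myeloperoxidase of azurophil granules, and it lies near EPX and LPO on chromosome 17, with MKS1 between EPX and LPO in the RefSeq order. MPO signal was 13.06, 13.17 and 13.14 on the arrays labelled induced RhoH, 13.36, 13.41 and 13.40 on those labelled uninduced RhoH, and 12.26, 12.17 and 12.16 on those labelled GFP. It kept the same order of groups as EPX without overlap. Its differences from GFP were 0.93 for induced and 1.19 for uninduced RhoH (adjusted p = 0.000157 and 5.83e-06), beside the 1.99 and 2.74 of EPX. A test between the 2 genes was not made. LPO, the lactoperoxidase gene between them, differed from GFP by 0.23 and 0.31 (adjusted p = 0.315 and 0.0827), and PXDN by 0.01 and 0.02. Whether the EPX probe set also reads MPO transcripts was not tested.

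The HL-60 line itself is marked by promyelocyte and azurophil genes. Of 8 measured, 6 were higher in arrays labelled induced RhoH than in GFP (MPO, PRTN3, CTSG, AZU1, MYB and MYC) and the same 6 in uninduced RhoH, with 0 lower in either. In these 2 comparisons, 1.74% and 6.01% of all genes were called higher, and 2.75% and 9.27% lower. The call of MYB in induced RhoH was lost in 8 of 19 alternatives. The mean log2 signal of the 8 genes ranged from 11.86 to 12.01 in induced RhoH, 12.24 to 12.28 in uninduced RhoH and 11.04 to 11.06 in GFP arrays. CTSG, the cathepsin G gene, had the order of EPX at 11.08 ± 0.29, 11.91 ± 0.01 and 9.44 ± 0.10 (SD, n = 3 each). Between induced and uninduced RhoH, 2 of the 8 fell and 0 rose (0.751% and 3.02% of all genes). They were the proliferation factor MYC (-0.85, adjusted p = 0.00287), whose call was lost in 0 of 19 alternatives, and CTSG (-0.83, adjusted p = 0.00703, and 0.0541 without both replicate 1 arrays). Neutrophil markers, with 10 measured, had 1 called higher in each comparison of RhoH with GFP, CEACAM8 (2.49 for induced RhoH, adjusted p = 6.10e-06), and 0 between the RhoH groups. Their mean signal was 7.78 to 8.24 in induced RhoH, 7.78 to 8.02 in uninduced RhoH and 7.78 to 7.84 in GFP arrays, and the defining granule gene LTF read 5.06 ± 0.25, 5.07 ± 0.10 and 5.13 ± 0.16. Monocyte markers, with 7 measured, had 2 higher between the RhoH groups (CD68 and CD86), 1 lower in induced RhoH than in GFP (CD14, -1.35) and 4 lower in uninduced RhoH than in GFP (CD14, CD68, CD86 and FCN1, the last by -0.54). Their mean signals were 6.43 to 6.73, 6.02 to 6.19 and 6.91 to 7.05 in the same order of groups. Of 3 lymphoid markers none was called, and of 3 erythroid and megakaryocyte markers KLF1 was higher in uninduced RhoH than in GFP (0.53, adjusted p = 0.0460, lost in 8 of 19 alternatives). The part of these cell types in the EPX and CLC results was not tested.

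HRH4 is also expressed by mast cells and basophils, and CLC by basophils. Of 7 markers of those cells measured, CPA3, GATA2 and KIT were higher in arrays labelled induced than uninduced RhoH and 0 were lower (3.02% and 0.751% of all genes). Their mean log2 signal was 6.40 to 6.64 in induced RhoH, 6.10 to 6.17 in uninduced RhoH and 6.06 to 6.13 in GFP arrays. CPA3, which encodes the granule carboxypeptidase of mast cells, had means of 8.27 ± 0.14, 7.48 ± 0.18 and 6.36 ± 0.18 (SD, n = 3 each) and differed by 0.79 between the RhoH groups (adjusted p = 0.00795, 0.0533 without both replicate 1 arrays) and by 1.91 from GFP in induced RhoH (adjusted p = 4.74e-05). TPSAB1, which encodes a mast cell tryptase, measured 6.08 ± 0.20, 6.52 ± 0.20 and 5.92 ± 0.19, with a difference of -0.44 between the RhoH groups (arrays not overlapping, adjusted p = 0.161). It was higher in uninduced RhoH than in GFP (0.60, adjusted p = 0.0187, lost in 4 of 19 alternatives). KIT, the stem cell factor receptor, was dim at 4.74 ± 0.04, 4.07 ± 0.14 and 5.28 ± 0.045, and ran differently from HRH4. It was lower than in GFP by a log2 difference of -0.53 in induced (lost in 1 of 18 alternatives) and -1.20 in uninduced RhoH. HDC, the enzyme that makes histamine and a defining marker of those cells, read 5.10 ± 0.18, 4.93 ± 0.19 and 4.98 ± 0.02 and passed in no comparison. The log2 signals of RMA have no 0, so no marker can be called absent. The part of this list in the HRH4 and CLC results was not tested.

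Likeness was taken as Pearson's r with each member over the 9 arrays, among the protein-coding genes whose arrays differed by at least 1, for the 3 members that did so themselves. The arrays share groups, so that r mostly follows the group means and is a description. For EPX the 5 closest of 1261 genes were ITM2A (0.979), ASS1 of arginine synthesis (0.976), MPO (0.974), CTSG (0.960) and the progenitor factor MYB (0.957). After the 2 arrays farthest from the EPX median were left out, r was 0.957, 0.951, 0.947, 0.922 and 0.918 in the same order. For CLC they were the metallothionein MT2A (0.951), CEACAM8 (0.920), HAS2 (0.919), OST4 (0.916) and EPX itself (0.911). HAS2 and OST4 were, like CLC, highest on the replicate 1 array in both RhoH groups and were called in none of the 3 comparisons. For HRH4 they were CRIM1 (0.957), ZNF347 (0.940), CPA3 (0.927), the junction protein JUP (0.916) and PLAGL1 (0.914).

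**Figure D3:**
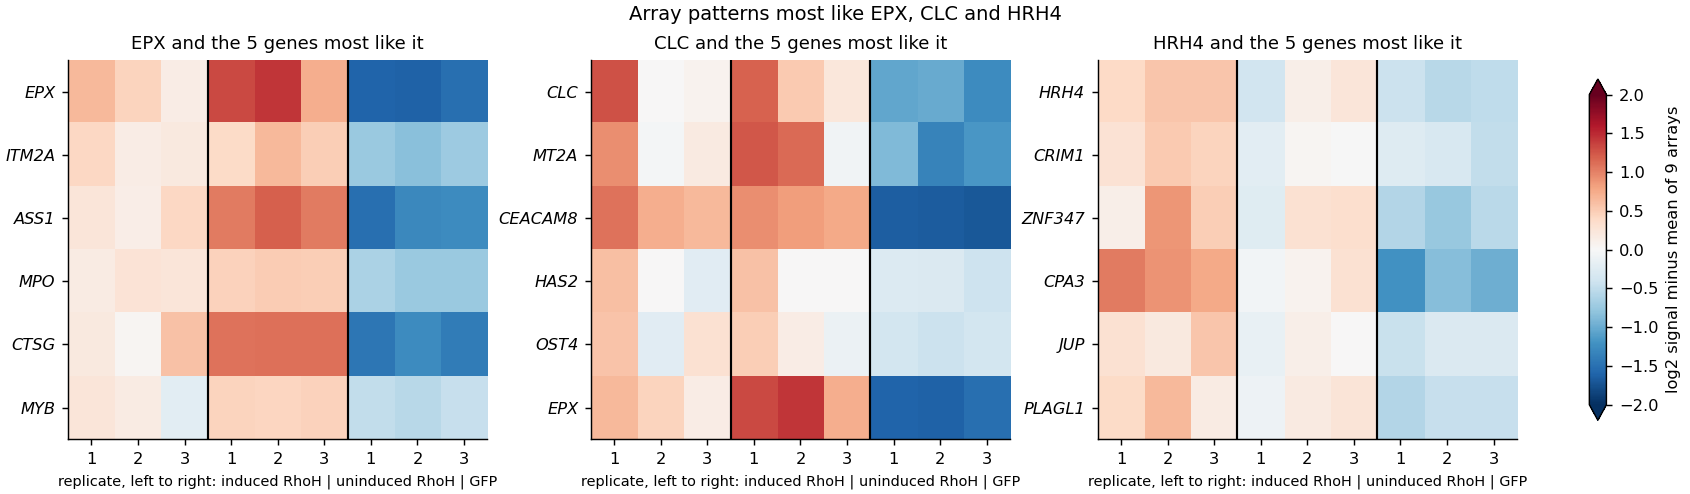
Log2 signal minus the gene's mean over 9 arrays (colour) for EPX, CLC and HRH4 and the 5 genes most like each. Columns are arrays, with induced RhoH, uninduced RhoH and GFP from left to right. EPX and its 5 genes are lowest in the 3 GFP columns, CLC is highest in replicate 1 of both RhoH groups, and HRH4 and its 5 genes are highest on average in induced RhoH.

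Relatives of the members that passed in no comparison did differ. SIGLEC8 lies in a siglec cluster on chromosome 19, with SIGLEC10 on one side and CEACAM18, SIGLEC12 and SIGLEC6 on the other. Siglecs are sialic acid-binding receptors, most of which inhibit the cell that bears them. Of 11 other measured siglecs, 6 rose and 0 fell between arrays labelled induced and uninduced RhoH (3.02% and 0.751% of all genes). The 6 were SIGLEC6 (2.62), SIGLEC12 (1.06), SIGLEC5 (0.80), SIGLEC10 (0.76), SIGLEC14 (0.61) and SIGLEC7 (0.49). The calls of SIGLEC7, SIGLEC10 and SIGLEC14 were lost in 11, 6 and 1 of 19 alternatives. SIGLEC6 read 9.81 ± 0.46 in induced RhoH, 7.19 ± 0.15 in uninduced RhoH and 10.28 ± 0.08 in GFP arrays (SD, n = 3 each; adjusted p = 7.39e-05 between the RhoH groups). Against GFP, 0 were higher and 4 lower in induced RhoH (SIGLEC5, SIGLEC7, SIGLEC9 and SIGLEC14, by -0.61 to -0.99, with the call of SIGLEC9 lost in 7 and that of SIGLEC5 in 2 of 19 alternatives), and 0 higher and 6 lower in uninduced RhoH (by -0.98 to -3.09). Among all genes, 1.74% were called higher and 2.75% lower in induced RhoH than in GFP, and 6.01% and 9.27% in uninduced RhoH. SIGLEC5 and SIGLEC14 are near-identical over part of their length, and their probe sets may read each other's transcripts. The median difference of the 11 was 0.49, -0.37 and -0.98 in the 3 comparisons, against 0.00, 0.03 and 0.05 over all genes.

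ALOX15 belongs to the pathways that oxidise arachidonate and answer to its products. Of 12 other measured genes of the lipoxygenase and leukotriene list, 5 rose and 0 fell between arrays labelled induced and uninduced RhoH (3.02% and 0.751% of all genes). They were ALOX5 (0.42, adjusted p = 0.0205), the 5-lipoxygenase that starts leukotriene synthesis, its activating partner ALOX5AP (0.55, adjusted p = 0.00360), the cyclooxygenase PTGS1 (0.79, adjusted p = 0.0141), the lipid peroxide reductase GPX4 (0.72, adjusted p = 0.00859) and the lipoxin receptor FPR2 (0.85, adjusted p = 0.0147). The call of ALOX5 was lost in 5 of 19 alternatives, and those of PTGS1, GPX4 and FPR2 in a fit without the GFP arrays (adjusted p = 0.0902, 0.0673 and 0.0917). In induced RhoH against GFP, ALOX5 (-0.39, lost in 6 of 19 alternatives), PTGS2 (-0.94, lost in 12 of 18) and FPR2 (-1.77) were lower and 0 higher. For uninduced RhoH 5 were lower, among them ALOX5 (-0.80), ALOX5AP (-0.84) and FPR2 (-2.62), and 0 higher. The shares of all genes were 2.75% lower and 1.74% higher for induced RhoH against GFP, and 9.27% and 6.01% for uninduced RhoH. LTC4S, which makes the cysteinyl leukotriene that eosinophils release, read 7.37 ± 0.17, 7.35 ± 0.13 and 7.25 ± 0.04 and passed in no comparison.

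**Figure D4:**
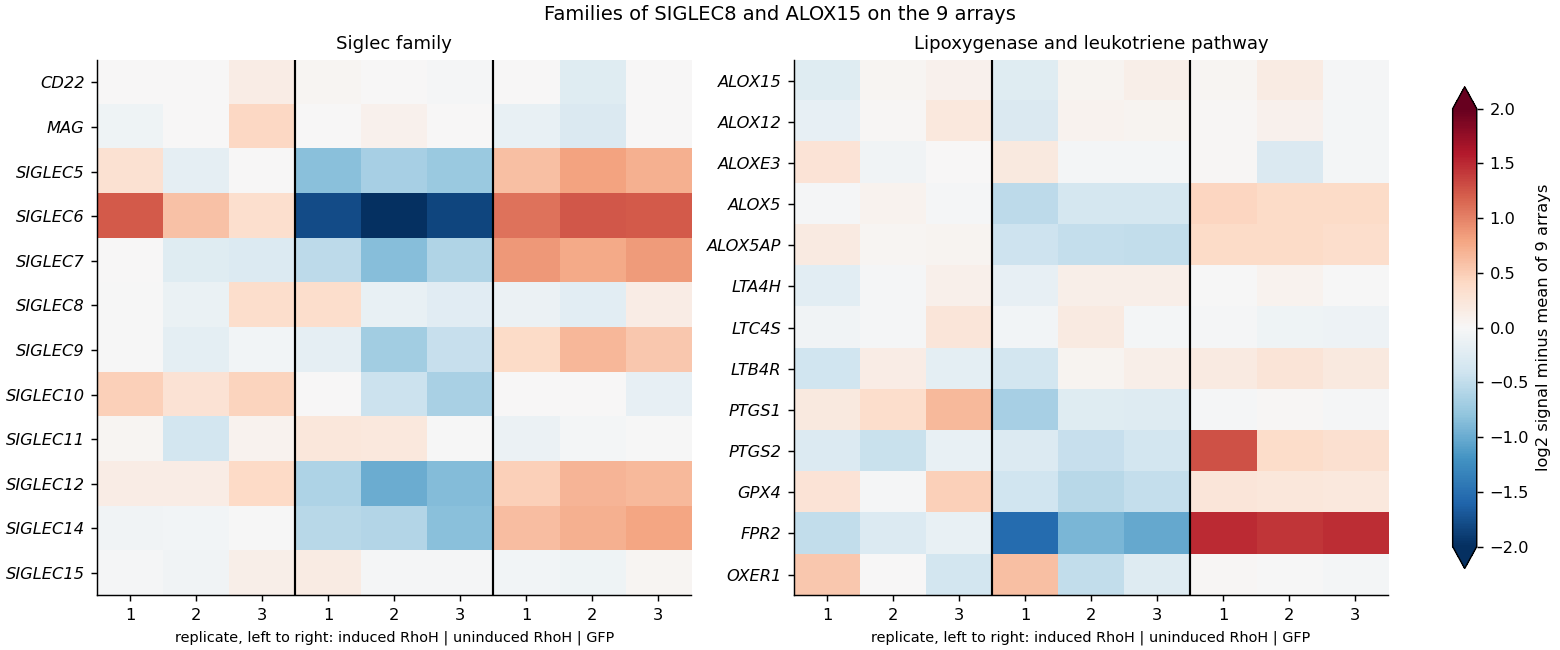
Log2 signal minus the gene's mean over 9 arrays (colour) for the measured siglecs and for the lipoxygenase and leukotriene pathway. Columns are arrays, with induced RhoH, uninduced RhoH and GFP from left to right. SIGLEC8 and ALOX15 differ by at most 0.58 and 0.40 between any 2 columns, whereas SIGLEC6 and FPR2 are lowest in uninduced RhoH, with mean differences from induced RhoH of 2.62 and 0.85.

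Other receptors of the eosinophil surface were measured beside the members. Of these 11, 2 rose and 0 fell between arrays labelled induced and uninduced RhoH (3.02% and 0.751% of all genes). The 2 were SIGLEC10 and CYSLTR1, a cysteinyl leukotriene receptor (8.71 ± 0.16 against 7.61 ± 0.41, SD, n = 3 each, adjusted p = 0.00759). The call of CYSLTR1 was lost in a fit without the GFP arrays (adjusted p = 0.0589). None of the 11 was called in induced RhoH against GFP by limma, although 4 had an unadjusted p under 0.05, as had 2419 of all 14778 genes. In uninduced RhoH against GFP, 4 were lower (CYSLTR1 by -1.35, the fatty acid receptor FFAR2 by -1.02, PILRA by -0.80 and the selectin ligand SELPLG by -0.63) and 0 higher. In that comparison 9.27% of all genes were called lower and 6.01% higher. Beside HRH4 and PTGDR2, 13 prostanoid and histamine receptors and enzymes were measured. The histamine-degrading enzyme HNMT rose between the RhoH groups (0.69, adjusted p = 0.00655), and was lower than in GFP by -0.56 in induced (lost in 3 of 19 alternatives) and -1.24 in uninduced RhoH. HRH1, HRH2 and HRH3, the other histamine receptor genes, passed in no comparison, with differences between -0.20 and 0.24. The thromboxane receptor TBXA2R was higher in uninduced RhoH than in GFP (0.39, adjusted p = 0.0409), a call lost in 8 of 19 alternatives.

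Of the cytokine receptor and signal genes of eosinophils, 12 were measured. LYN, a kinase that acts at the interleukin-5 receptor, rose between arrays labelled induced and uninduced RhoH by 1.03 (adjusted p = 0.000186), as did the STAT5 target PIM1 by 0.64 (adjusted p = 0.0352, lost in 11 of 19 alternatives), and 0 fell. Between the RhoH groups 3.02% of all genes rose and 0.751% fell. None of the 12 was called in induced RhoH against GFP, where 6 had an unadjusted p under 0.05, as had 2419 of all 14778 genes. In uninduced RhoH against GFP, STAT5B was higher (0.62, adjusted p = 0.00375) and LYN (-1.31), PIM1 (-1.02) and BCL6 (-0.65) lower. There, 6.01% of all genes were called higher and 9.27% lower. IL5RA and CCR3, which encode the interleukin-5 and eotaxin receptors, were not analysed here.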

How the data were processed

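RNA from HL-60 clone 15 cells was labelled with biotin and hybridised to 9 Affymetrix arrays, 3 per group, with groups and replicate numbers taken from the sample titles. The authors deposited log2 values for 43550 probe sets. The submitters' processing notes name RMA, Affymetrix Power Tools and limma, with versions and genome build not given in the sources used here. No 2 arrays were identical. The number of arrays limits the precision.

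Probe sets were named through the platform annotation and a RefSeq gene table of GRCh38.p14 (1 symbol for 15659 probe sets, none for 27891), keeping per gene the probe set with the highest mean over the 9 arrays. limma 3.58.1 in R 4.3.3 fitted 3 group means over 9 arrays (6 residual and 3.86 prior degrees of freedom), with Benjamini-Hochberg adjustment over 14778 genes within each of 3 comparisons, and was tested on simulated data. The 95% intervals use the moderated t distribution.

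The 7 members, the gene lists and the alternatives were chosen with earlier results of these data known. The genes named are the members, list genes called in at least 1 comparison, RHOH, GATA1, GATA2 and MPO, some lineage and granule genes whatever their result, and the 5 genes most like a member. HRH1 to HRH3, LPO, PXDN, LTC4S, LTF and HDC, and the order of neighbouring genes, were added after their values were seen.

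In all, 19 alternatives were tried: other scalings, feature sets, filters, weights, variance models and samples, among them leaving out each of the 9 arrays in turn.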

Additional observations from a re-analysis of the deposited data

How the results depend on the processing

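With 3 arrays per group, calls near the threshold moved with single arrays. Between induced and uninduced RhoH, the count of eosinophil genes called, 0, was 1 after quantile normalization again (HRH4), 1 without the dimmest genes (those of lowest mean signal), with an intensity trend and with the replicate block (EPX in each), and 0 to 1 when each array was left out in turn. The counts of 3 against GFP stayed between 2 and 4 under the alternatives, and were 2 to 3 when each array was left out in turn, for induced and for uninduced RhoH. Among list genes, only those called in at least 1 comparison of the main fit, with RHOH and GATA1, were followed across settings. No member or followed gene whose difference was called in any setting changed direction between settings. PRG3 and SIGLEC8 fell among the dimmest genes and have no value there.

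Over all genes, the 558 calls between induced and uninduced RhoH (447 higher, 111 lower) were 953 after quantile normalization again (588 higher, 365 lower), 950 with array weights, 190 with only the 6 arrays compared, and 304 to 666 when each array was left out in turn (lowest without uninduced RhoH replicate 3, highest without induced RhoH replicate 3, with 386 higher and 280 lower). The 664 calls of induced RhoH against GFP were 1176 with array weights and 279 to 861 when each array was left out, and the 2258 of uninduced RhoH against GFP were 4326 and 1450 to 2670. The cause of these shifts was not tested.

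Replicate numbers paired the arrays of the RhoH groups only in part, and the main fit held no replicate term. Deviations of same-numbered arrays from their group means correlated at 0.543, 0.368 and 0.0654 between the RhoH groups. Induced RhoH replicate 1 correlated at -0.445 and -0.388 with uninduced RhoH replicates 2 and 3. Deviations from a group mean cancel within the group for each gene, so these negative values are tied to the 0.543 and are not separate evidence of pairing. Induced RhoH replicate 2, however, correlated best with uninduced RhoH replicate 3 (0.395). With the replicate block, EPX passed between the RhoH groups (-0.75, adjusted p = 0.0291) and HRH4 between uninduced RhoH and GFP (0.49, adjusted p = 0.0376), and the block changed no other call of a member. Among the list genes followed across settings, the block added TPSAB1 between the RhoH groups (-0.44, adjusted p = 0.0375). It also added FFAR2 (-0.88, adjusted p = 0.0307) and STAT5B (0.46, adjusted p = 0.0227) for induced RhoH against GFP.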
